A study of Mus musculus with 10 samples.

Results

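The unfolded protein response genes described here are 10 genes, Xbp1, Atf4, Ddit3, Hspa5, Hsp90b1, Dnajb9, Herpud1, Sdf2l1, Pdia4 and Calr, out of 55421 genes in a table of raw read counts. They were found by matching each Ensembl gene identifier of the table to its symbol in an annotation of the mouse genome GRCm38, and all 10 were counted in every library. RNA was sequenced from 2 kinds of myeloid cells of mice of 8 to 12 weeks carrying a fibrosarcoma made from the MC17-51 line (M17), taken 15 days after implantation. Gr-1+ myeloid-derived suppressor cells (MDSC) were isolated from the spleen, and CD11b+F4/80+ tumor-associated macrophages (TAM) were sorted from the tumor. The study's methods describe the spleen cells as polymorphonuclear MDSC, high in Gr-1, Ly6G+ and Ly6C-, taken with magnetic beads. SHP-2, a tyrosine phosphatase, is the product of Ptpn11, and this gene was floxed in the Shp2f/f controls. Animals of the other genotype, Shp2f/fLysMcre, had the same floxed gene and also Cre recombinase driven by the lysozyme M promoter, which is active in myeloid cells, so that both genotypes share the floxed allele and the tumor. The groups held 2 Shp2f/f and 2 Shp2f/fLysMcre libraries of MDSC and 3 Shp2f/f and 3 Shp2f/fLysMcre libraries of TAM. The labels do not say whether a library is 1 mouse or a pool, so the tests measure the spread between these libraries, which may be partly technical.

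The endoplasmic reticulum (ER) is where secreted and membrane proteins are folded, and the unfolded protein response is the program a cell starts when unfolded protein builds up there. IRE1 (gene Ern1) cuts a short segment out of the Xbp1 messenger RNA, which shifts the reading frame and yields the active factor XBP1s. PERK (gene Eif2ak3) phosphorylates the initiation factor eIF2alpha, which lowers translation in general and raises that of ATF4, the activator of amino acid genes and of Ddit3, which encodes CHOP. ATF6 is cut in the Golgi and its released fragment, like XBP1s, switches on chaperone genes. In myeloid cells the IRE1 and XBP1 arm also serves normal secretion and granule formation, apart from stress.

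Libraries held 33262119 to 36541823 counts in MDSC and 28844660 to 38222998 in TAM, and the 10 genes together took 0.409% to 0.528% of a library. Values below are CPM, counts per 1000000 counted reads of the library, with library sizes adjusted by TMM, a trimmed mean of the log ratios between libraries, unless another scale is named. Ptpn11 was at 50.9 to 54.2 CPM in Shp2f/fLysMcre TAM against 121 to 125 in Shp2f/f TAM, but at 94.7 and 79.7 against 113 and 99.2 CPM in MDSC, where the difference did not pass the test (edgeR, adjusted p = 0.361). The MDSC libraries carried neutrophil and macrophage markers together: Ly6g, which defines granulocytic MDSC, was at 8.91 and 11.9 CPM in Shp2f/f and 29.8 and 33.2 in Shp2f/fLysMcre, while Csf1r, the receptor that marks monocytes and macrophages, was at 1030 to 1441 CPM in MDSC and 1425 to 1695 in TAM. In bulk RNA, fewer cells of a type and less RNA per cell cannot be told apart. The library of Shp2f/fLysMcre MDSC replicate 2 stood apart, with 6896 counts of the collagen gene Col1a1 against 58 to 492 in the other MDSC libraries and 2267 of the matrix gene Lum against 1 or 2. For the 10 genes, log2 fold changes in MDSC without this library are given where they moved by over 1.5 times.

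The sequences that tie these genes to the response are shown first, since they mark what a gene count can and cannot see. IRE1 removes a segment of 26 bases from exon 4 of Xbp1 (GRCm38). It is given in capitals between its flanks, as found in the annotated transcript by the loop letters at both of its ends.
Xbp1, chr11:5524279-5524304, plus strand, with its flanks: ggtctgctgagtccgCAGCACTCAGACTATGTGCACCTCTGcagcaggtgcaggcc
Counts per gene add up both forms of this messenger RNA, so the Xbp1 values below are its total amount and not the active form.

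XBP1s and ATF6 act on chaperone genes through the ER stress response element (ERSE), here taken as CCAAT, any 9 bases, then CCACG, and through a shorter form, ERSE-II, taken as ATTGG, any 1 base, then CCACG. Exact matches were sought on both strands of the RefSeq promoters, which run from 250 bases before the start to 50 after it (300 in all, build GRCm38.p6), and all 10 genes had a promoter there. ERSE letters were found in 3 of the 10, Hspa5, Hsp90b1 and Calr. They were in 0.119% of 32851 promoters of all genes and in 6% of 100 promoters of other genes of the pathway. ERSE-II letters were found in Herpud1, against 0.0365% of all promoters and 1% of those of the other pathway genes. These elements are known from genes of this kind, so the matches describe the promoters and are no finding of enrichment. The ATF4 element CARE, TGATG, any 1 base, then AAT or AAC, was found in the Herpud1 promoter, on the reverse strand, against 1.77% of all promoters, and no promoter of the 10 held the XBP1 element known as UPRE, which 0.676% of all promoters held. Of the 4 genes with a match, Hsp90b1 and Calr fell and Herpud1 rose in Shp2f/fLysMcre TAM, while Hspa5 did not pass the test. Sdf2l1, without a match, fell there too, and whether the letters bear on these changes was not tested. The 250 bases before the start of the 4 genes are shown, capitals marking the fixed letters of each match.
Hspa5, chr2:34771840-34772089, plus strand: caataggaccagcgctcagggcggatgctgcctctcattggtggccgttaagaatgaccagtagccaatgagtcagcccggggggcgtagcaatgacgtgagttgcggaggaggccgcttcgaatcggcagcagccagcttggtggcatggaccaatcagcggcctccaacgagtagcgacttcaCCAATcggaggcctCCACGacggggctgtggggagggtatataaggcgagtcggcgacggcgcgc
Hsp90b1, chr10:86705445-86705694, minus strand: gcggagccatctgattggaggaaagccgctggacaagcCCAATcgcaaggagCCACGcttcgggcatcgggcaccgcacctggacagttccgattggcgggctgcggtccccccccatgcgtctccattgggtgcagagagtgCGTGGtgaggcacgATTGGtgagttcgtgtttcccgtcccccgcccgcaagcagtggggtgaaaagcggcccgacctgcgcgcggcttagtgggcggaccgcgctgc
Calr, chr8:84846932-84847181, minus strand: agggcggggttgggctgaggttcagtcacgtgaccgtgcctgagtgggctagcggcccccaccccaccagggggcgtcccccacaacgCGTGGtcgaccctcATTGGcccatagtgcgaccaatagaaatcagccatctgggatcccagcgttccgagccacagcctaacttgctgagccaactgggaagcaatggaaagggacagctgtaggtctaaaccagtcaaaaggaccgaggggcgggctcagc
Herpud1, chr8:94386179-94386428, plus strand: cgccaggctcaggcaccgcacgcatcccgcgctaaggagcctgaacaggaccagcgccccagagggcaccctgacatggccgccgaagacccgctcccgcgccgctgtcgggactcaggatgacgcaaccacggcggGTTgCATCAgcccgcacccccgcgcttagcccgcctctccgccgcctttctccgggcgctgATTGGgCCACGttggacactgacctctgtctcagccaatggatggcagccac
Hspa5 held its ERSE from 65 to 47 bases before the start. Hsp90b1 held a pair, of which the farther was read forward and the nearer in reverse, and Calr held 1 in reverse. In Herpud1 the ERSE-II lay from 52 to 42 bases before the start and the CARE farther up. A match of letters is not a binding site, and the absence of a match in Xbp1, Atf4, Ddit3, Dnajb9, Sdf2l1 and Pdia4 says only that these letters are not in this window.

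The first comparison asked how deletion of SHP-2 in myeloid cells went with these genes in spleen MDSC. None of the 10 passed the test (edgeR's quasi-likelihood test, Benjamini-Hochberg adjusted over 14806 genes, threshold 0.05), where 4.28% of all tested genes did. The fitted values of 8 of the 10 were lower and of 2 higher in Shp2f/fLysMcre MDSC, with a median log2 fold change of -0.33 against -0.015 over all genes, of which 52.2% were lower. The groups did not overlap for 7 of the 10, as for 48.9% of all genes, and 5 were under an unadjusted p of 0.05, as were 19.3% of all genes.

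Among the factors, Xbp1 (ENSMUSG00000020484, chr11:5520659-5525893), the target of IRE1, was at 627 and 636 CPM in Shp2f/f MDSC and at 478 and 438 in Shp2f/fLysMcre MDSC. Both Shp2f/fLysMcre libraries lay below both controls, and the fold was 0.723. Its log2 fold change was -0.47 ± 0.12 (SE, n = 2 and 2; edgeR, adjusted p = 0.106). The study reported lower Xbp1 in Shp2f/fLysMcre MDSC from these data, so its direction here is not independent evidence. The study used DESeq2, and that test called Xbp1 lower here too (DESeq2, adjusted p = 0.00291), unlike edgeR. Atf4 (ENSMUSG00000042406, chr15:80255184-80257541), the factor downstream of PERK, was at 197 and 227 CPM in Shp2f/f and at 199.99 and 293 in Shp2f/fLysMcre. Ddit3 (ENSMUSG00000025408, chr10:127290774-127296288), which encodes CHOP, was at 10.91 and 10.99 CPM in Shp2f/f and at 10.2 and 17.3 in Shp2f/fLysMcre. In both genes only the library with high collagen counts was above both controls. The log2 fold changes of Atf4 and Ddit3 were 0.21 ± 0.20 and 0.32 ± 0.25 with all libraries (edgeR, adjusted p = 0.665 and 0.588) and -0.08 and -0.09 without that library.

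The 5 chaperones and folding enzymes of the ER lumen all had fitted values below 0, and none of them passed the test. Hspa5 (ENSMUSG00000026864, chr2:34771970-34777547), the Hsp70 chaperone BiP that also holds the sensors inactive, was at 1446 and 1535 CPM in Shp2f/f and 1160 and 1097 in Shp2f/fLysMcre MDSC. Calr (ENSMUSG00000003814, chr8:84841850-84846934), the calcium-binding lectin chaperone calreticulin, was at 1096 and 1143 against 872 and 708 CPM. Pdia4 (ENSMUSG00000025823, chr6:47796141-47813430), a disulfide isomerase, was at 174 in both controls against 136 and 119 CPM. In all of these genes both Shp2f/fLysMcre libraries lay below both controls. Sdf2l1 (ENSMUSG00000022769, chr16:17130138-17132383), a partner of BiP and the ER J-proteins, was at 148 and 157 against 109.6 and 91.6 CPM. Its log2 fold change was the lowest of the 10, -0.61 ± 0.14 (edgeR, adjusted p = 0.0830). The log2 fold changes were -0.41 ± 0.12 for Hspa5, -0.51 ± 0.15 for Calr and -0.45 ± 0.12 for Pdia4 (edgeR, adjusted p = 0.146, 0.148 and 0.124). Hsp90b1 (ENSMUSG00000020048, chr10:86690209-86705509), the Hsp90 of the ER known as GRP94, was at 978 and 1077 against 859 and 872 CPM, a log2 fold change of -0.25 ± 0.12 (edgeR, adjusted p = 0.334). Exons of Hsp90b1 overlap 415 bases of a pseudogene on the other strand, and those of Ddit3 overlap 68 bases of Mars. Hsp90b1 also overlaps 84 bases of a processed transcript and 133 of a microRNA gene on its own strand. How reads in such overlaps were assigned was not stated, so these counts may include reads of the neighbor or lack reads of the overlap.

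Of the genes of disposal and co-chaperoning, Herpud1 (ENSMUSG00000031770, chr8:94386438-94395377), an ER membrane protein of the degradation complex, was at 117 and 116 CPM in Shp2f/f and 107 and 100.5 in Shp2f/fLysMcre MDSC, a log2 fold change of -0.17 ± 0.11 (edgeR, adjusted p = 0.498). Dnajb9 (ENSMUSG00000014905, chr12:44205559-44210326), the J-protein ERdj4 and a classical XBP1s target, was at 43.3 and 38.7 against 39.7 and 33.1 CPM, with overlapping groups and a log2 fold change of -0.18 ± 0.14 (edgeR, adjusted p = 0.593). Without the library with collagen counts the values were -0.11 for Herpud1 and -0.04 for Dnajb9, and without Shp2f/fLysMcre replicate 1 that of Dnajb9 was -0.35.

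The call in MDSC depended on the test and on single libraries. DESeq2 called 5 of the 10, all lower (Xbp1, Hspa5, Sdf2l1, Pdia4 and Calr), where it called 7.90% of all genes. Without Shp2f/fLysMcre replicate 2, the library with collagen counts, edgeR called 3, all lower, where it called 18% of all genes and 5.34% as lower, and all 10 fitted values were lower, with a median log2 fold change of -0.30. Without Shp2f/fLysMcre replicate 1 it called 7, of which 5 were lower and Atf4 and Ddit3 higher, where it called 27.2% of all genes. Without either Shp2f/f library it called 1 gene in all and none of the 10, which says nothing about them.

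**Figure D1:**
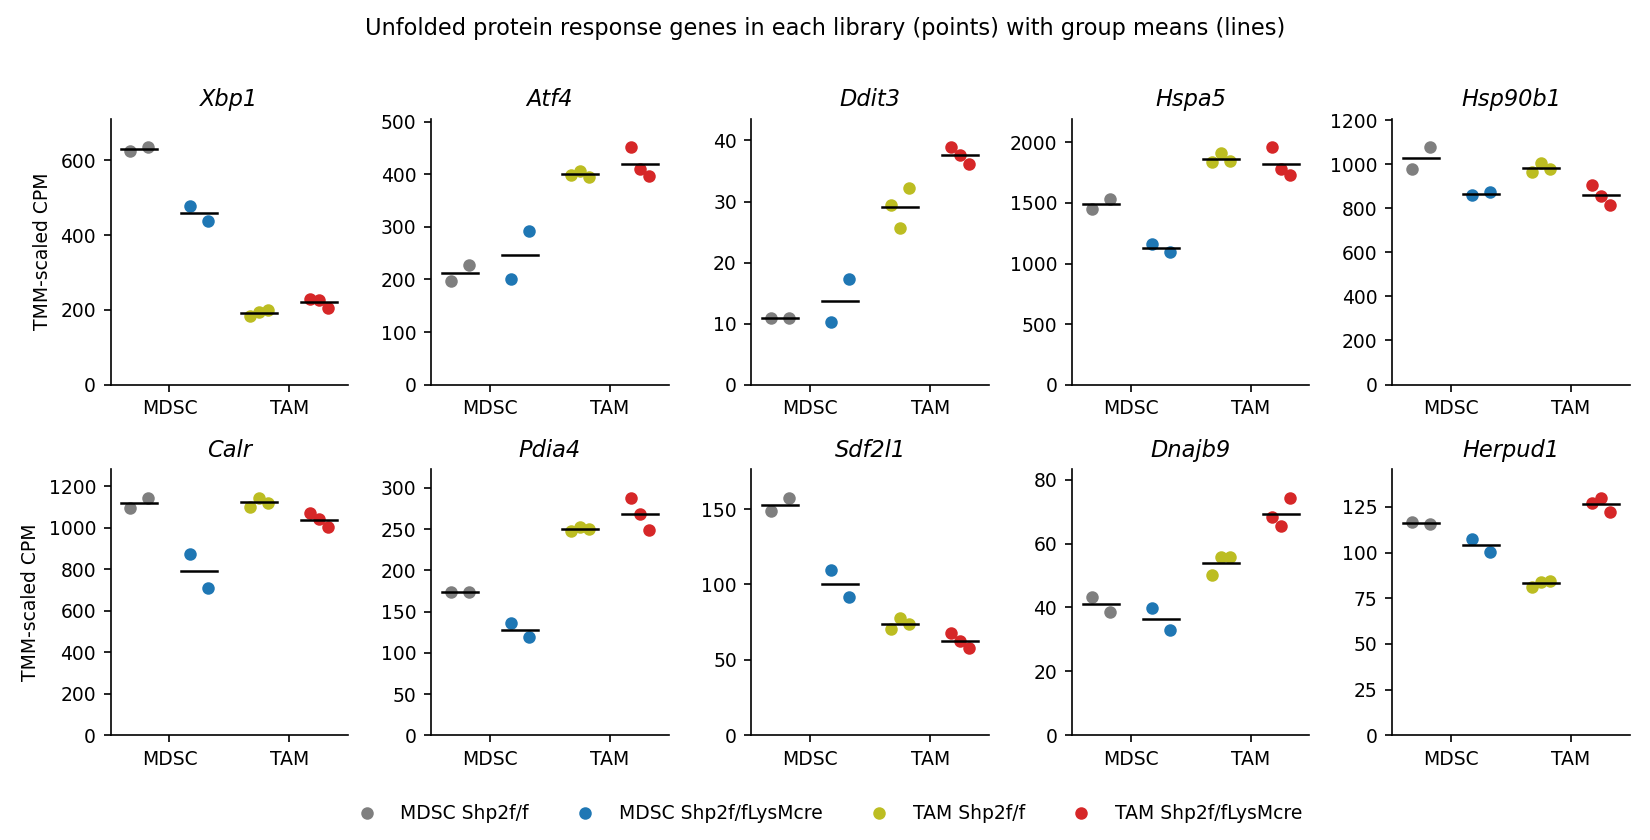
TMM-scaled CPM (vertical axes, each starting at 0) of the 10 genes in every library, with 2 Shp2f/f (grey) and 2 Shp2f/fLysMcre (blue) points for MDSC and 3 Shp2f/f (olive) and 3 Shp2f/fLysMcre (red) points for TAM; black lines are group means. Xbp1 lay at 438 to 636 CPM in MDSC and at 185 to 229 in TAM, and the groups of Herpud1 in TAM, 81.3 to 84.6 and 122 to 129.9 CPM, did not overlap.

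The second comparison asked the same of TAM from the tumor. Herpud1, Dnajb9, Ddit3 and Xbp1 rose in Shp2f/fLysMcre TAM, and Hsp90b1, Sdf2l1 and Calr fell, so that 7 of the 10 passed the test, where 50.2% of the 14446 genes tested did. The 4 that rose stand against 23.9% of all genes, and the 3 that fell against 26.3%. The median log2 fold change of the 10 was 0.05, against -0.013 over all genes, of which 51.6% were lower. The groups did not overlap for these 7, as for 57.9% of all genes.

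Herpud1 showed the largest difference of the 10. It was at 81.3, 83.7 and 84.6 CPM in Shp2f/f TAM and at 127, 129.9 and 122 in Shp2f/fLysMcre TAM. Every Shp2f/fLysMcre library was far above every control, at 1.48-fold, and the log2 fold change was 0.57 ± 0.037 (SE, n = 3 and 3; edgeR, adjusted p = 4.16e-07). Dnajb9 was at 50.3, 55.8 and 55.7 CPM in Shp2f/f and 68.4, 65.4 and 74.3 in Shp2f/fLysMcre. Its groups were apart as well, with a log2 fold change of 0.33 ± 0.059 (edgeR, adjusted p = 0.000785).

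Of the factors, Ddit3 was at 29.4, 25.6 and 32.2 CPM in Shp2f/f TAM and 38.9, 37.7 and 36.2 in Shp2f/fLysMcre TAM. Its log2 fold change was 0.34 ± 0.075 (edgeR, adjusted p = 0.00326). Atf4 was at 399, 406 and 395 against 452, 409.9 and 397 CPM. Its groups overlapped, since 1 Shp2f/fLysMcre library lay well above the controls, 1 just above and 1 among them, and its log2 fold change was 0.03 ± 0.048 (edgeR, adjusted p = 0.595). Xbp1 was at 185, 195 and 198 against 229, 226 and 205 CPM. All Shp2f/fLysMcre libraries were above all controls by a small margin, and the log2 fold change was 0.16 ± 0.048 (edgeR, adjusted p = 0.0183). This call was lost without Shp2f/f replicate 1 (edgeR, adjusted p = 0.0727), without Shp2f/fLysMcre replicate 2 (0.0758) and when libraries were scaled by their total count (log2 fold change 0.06, adjusted p = 0.291), a scaling that moved the median over all genes to -0.111.

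The chaperones and folding enzymes Hsp90b1, Sdf2l1, Calr, Hspa5 and Pdia4 were not called higher, unlike Herpud1 and Dnajb9. Hsp90b1 was at 964, 1006 and 978 CPM in Shp2f/f TAM and 906, 858 and 813 in Shp2f/fLysMcre TAM, and fell by 0.23 ± 0.041 on the log2 scale (edgeR, adjusted p = 0.000706). Sdf2l1 was at 70.6, 77.7 and 73.6 against 67.9, 62.6 and 57.8 CPM, and fell by 0.27 ± 0.057 (edgeR, adjusted p = 0.00197). Calr was at 1102, 1144 and 1121 against 1070, 1044 and 1004 CPM, and fell by 0.15 ± 0.034 (edgeR, adjusted p = 0.00375). In these genes every Shp2f/fLysMcre library was below every control, though the differences were small against those of Herpud1. Hspa5, the most abundant of the 10 in TAM, was at 1836, 1912 and 1849 against 1961, 1780 and 1730 CPM, and Pdia4 at 248, 252 and 250.04 against 288, 269 and 249 CPM. Both had overlapping groups and did not pass the test, with log2 fold changes of -0.07 ± 0.043 and 0.07 ± 0.049 (edgeR, adjusted p = 0.211 and 0.285). With total-count scaling 7 of the 10 were still called, but 3 higher and 4 lower in place of 4 and 3, since Xbp1 was no longer called and Hspa5 was, at -0.17, while Atf4 and Pdia4 turned to -0.07 and -0.03.

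**Figure D2:**
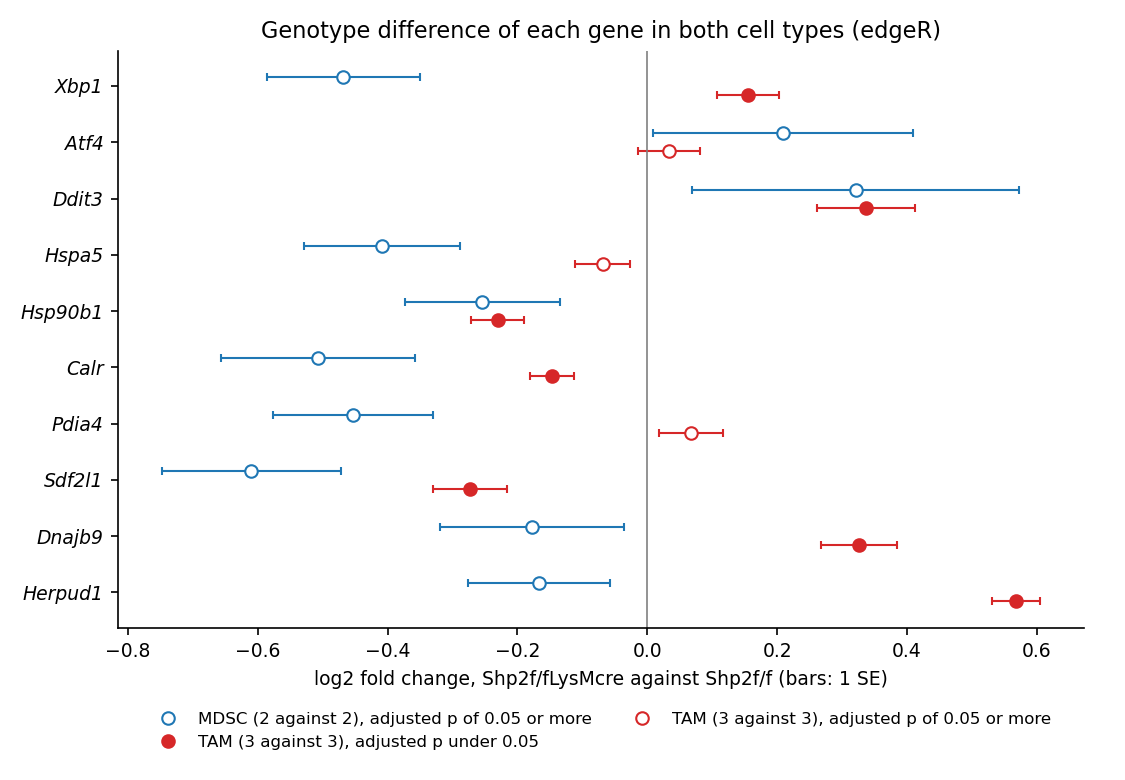
Log2 fold change of Shp2f/fLysMcre against Shp2f/f (horizontal axis) for the 10 genes in MDSC (blue, 2 against 2 libraries) and TAM (red, 3 against 3), with bars of 1 SE; filled points passed the edgeR test at an adjusted p under 0.05. All MDSC points are open, and the 7 filled TAM points lie on both sides of 0, from -0.27 for Sdf2l1 to 0.57 for Herpud1.

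An interaction term, fitted to the 10 libraries together, asked whether the genotype difference itself was unlike in TAM and MDSC. It was more positive in TAM for 6 of the 10 genes and more negative for none, where 24.9% of the 16581 genes tested were called in either direction and 12.2% as more positive in TAM. This test uses the same libraries as the comparisons above and is no separate evidence for them. By the study's methods MDSC and TAM came from the same mice, but the labels do not say which libraries share animals, so this test and that between cell types treated all libraries as independent. The fit used 1 dispersion per gene, though libraries spread more in MDSC (biological coefficient of variation 0.189) than in TAM (0.0595). Herpud1 differed most, by 0.77 ± 0.077 on the log2 scale (edgeR, adjusted p = 0.000111), from -0.17 in MDSC to 0.57 in TAM. That SE is below the 0.11 of Herpud1 in MDSC alone, so the SEs and adjusted p of the interaction may be too small. Xbp1 differed by 0.65 ± 0.097 (edgeR, adjusted p = 0.00112), with values on opposite sides of 0. Pdia4 differed by 0.55 ± 0.11 and Dnajb9 by 0.54 ± 0.13 (edgeR, adjusted p = 0.00461 and 0.0175). The chaperones Calr and Hspa5 differed by 0.39 ± 0.12 and 0.37 ± 0.099 (edgeR, adjusted p = 0.0391 and 0.0232), with lower values in MDSC than in TAM. Sdf2l1, at 0.37 ± 0.13, did not pass the test (edgeR, adjusted p = 0.0662), nor did Atf4, Ddit3 or Hsp90b1, at -0.15 ± 0.19, 0.04 ± 0.26 and 0.05 ± 0.095 (edgeR, adjusted p = 0.630, 0.944 and 0.738). Hspa5 was not called by limma voom with weights per cell type, and Calr lost its call in all fits without 1 library except those without either Shp2f/fLysMcre MDSC library. Without Shp2f/fLysMcre MDSC replicate 2 the count was 7, where 25.4% of all genes were called. Without Shp2f/fLysMcre MDSC replicate 1 it was 8, 7 more positive and Atf4 more negative, where 39% were called, and without Shp2f/f MDSC replicate 1 it was 3, where 13.9% were. With total-count scaling it was 3, where 7.45% of all genes were called more positive in TAM.

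The rest of the pathway was read from lists of 105 genes by role. In MDSC 1 of the 102 tested passed the test, Asns, and 75 were lower, with a median log2 fold change of -0.18. Asns, which makes asparagine and is a textbook ATF4 target, rose from 16.97 ± 2.0 (SD, n = 2) to 37.6 ± 0.65 CPM (n = 2), a log2 fold change of 1.14 ± 0.13 (edgeR, adjusted p = 0.0187). Its call was lost without either Shp2f/f library, but those fits called almost no gene and say nothing about Asns. Fitted values were lower for 18 of 20 ER folding factors (median -0.30), 20 of 22 genes of ER translocation and export (-0.24) and 14 of 17 of ER-associated degradation (-0.13), and none of these genes passed the test. The 28 tested targets of ATF4 and CHOP had a median of 0.01, with 15 higher and 13 lower. Without the library with collagen counts, 20 of the 102 were called (19.6%), near the 18% of all genes called in that fit, 13 of them lower and 7 higher, and 17 folding factors, 18 translocation genes and 11 degradation genes were lower. The sensors Ern1, Eif2ak3 and Atf6 did not pass the test, with log2 fold changes of 0.02 ± 0.23, 0.01 ± 0.17 and -0.38 ± 0.20. Their Shp2f/fLysMcre MDSC libraries lay far apart, at 78.9 and 122 CPM for Ern1, 65.0 and 86.6 for Eif2ak3 and 169 and 239 for Atf6. The signs of Ern1 and Eif2ak3 turned when 1 library was left out.

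In TAM 64 of the 105 passed the test, against the 50.2% of all genes, and the median log2 fold change of the 105 was -0.06. Called higher were 21 and lower 43, where 23.9% of all genes were called higher and 26.3% lower. With total-count scaling the split was 13 higher and 55 lower. Among the 21 folding factors 10 fell and 1 rose, with a median of -0.14. The gene that rose, Ero1l (0.46 ± 0.040; edgeR, adjusted p = 3.87e-06), encodes an oxidase that drives disulfide bonds and was named after its value was seen, as were the other examples of this and the next sentence. Among those that fell were Hyou1 and Manf, at -0.26 ± 0.041 and -0.27 ± 0.048 (edgeR, adjusted p = 0.000324 and 0.000720), a chaperone and a secreted factor of the ER. Among the 22 genes of translocation and export 11 fell and 2 rose, with a median of -0.12. The largest fall was that of the signal peptidase subunit Sec11c, at -0.74 ± 0.047 (edgeR, adjusted p = 3.49e-07). Among the 17 degradation genes 6 rose and 2 fell, with a median of 0.07. The lectins Os9 and Erlec1 hand misfolded glycoproteins to the ubiquitin ligase complex that Herpud1 belongs to. They rose by 0.34 ± 0.048 and 0.32 ± 0.058 (edgeR, adjusted p = 0.000124 and 0.000779). The difference between the lists was not tested.

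The 30 targets of ATF4 and CHOP split in TAM, with 9 higher and 16 lower and a median of -0.33. The stress-induced regulators Ddit4, an inhibitor of mTORC1, and Atf3, a transcription factor, rose most. Ddit4 went from 25.9 ± 1.4 to 77.5 ± 9.5 CPM (SD, n = 3 each), a log2 fold change of 1.55 ± 0.080 (edgeR, adjusted p = 8.69e-08). Atf3 went from 299 ± 4.0 to 747 ± 20 CPM, a log2 fold change of 1.28 ± 0.036 (edgeR, adjusted p = 2.20e-09). Cebpb, a factor of myeloid differentiation, rose by 0.61 ± 0.048 (edgeR, adjusted p = 1.64e-06). Leaving aside targets averaging under 10 CPM, amino acid genes showed the largest falls: Asns, the glutamine transporter gene Slc1a5 and the serine synthesis gene Psat1. Asns went from 36.7 ± 4.0 to 17.2 ± 2.1 CPM, a log2 fold change of -1.13 ± 0.093 (edgeR, adjusted p = 2.36e-06), opposite to MDSC, and the difference between the cell types was -2.24 ± 0.17 (edgeR, adjusted p = 2.70e-05). Slc1a5 and Psat1 fell by 0.96 ± 0.036 and 0.89 ± 0.042 (edgeR, adjusted p = 9.10e-09 and 5.06e-08). Atf4 itself did not pass the test in TAM. Of the sensors, Ern1, Eif2ak3 and Atf6 did not pass it either, with log2 fold changes of -0.08 ± 0.050, 0.08 ± 0.047 and 0.07 ± 0.036. With total-count scaling Eif2ak3 and Atf6 turned negative, and Ern1 was called lower, at -0.18 (edgeR, adjusted p = 0.0148).

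**Figure D3:**
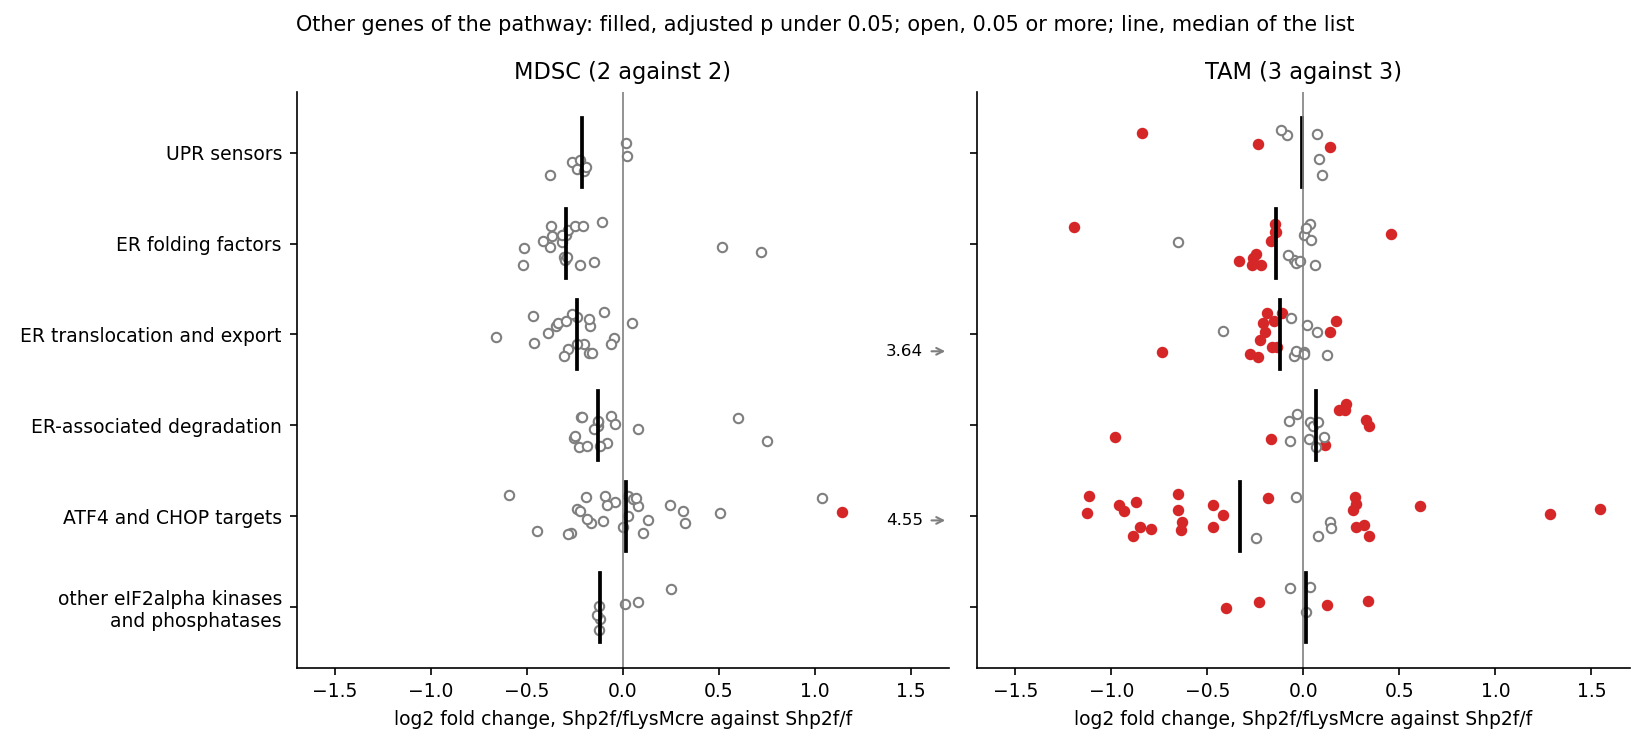
Log2 fold change of Shp2f/fLysMcre against Shp2f/f (horizontal axes) for each tested gene of 6 pathway lists in MDSC (left) and TAM (right), filled where the edgeR adjusted p was under 0.05, with the median of each list as a black line; vertical scatter within a list has no meaning, and arrows mark 2 MDSC genes beyond the axis, at 3.64 and 4.55. The medians of folding and translocation genes lie below 0 in both panels, and in TAM the targets of ATF4 and CHOP spread from -1.13 to 1.55.

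The level of these genes in controls was then set between the cell types, where organ, isolation and cell type cannot be told apart and the same Shp2f/f libraries serve as in the comparisons above. Of the 10 genes 8 passed the test, where 78.8% of the 15659 tested genes did, with 5 higher in TAM (40.0% of all genes) and 3 higher in MDSC (38.8%). The groups did not overlap for 8, as for 86.0% of all genes. Xbp1 stood out among the factors, at 631 ± 6.3 CPM (SD, n = 2) in MDSC and 193 ± 7.0 (n = 3) in TAM, a log2 difference of TAM against MDSC of -1.71 ± 0.048 (edgeR, adjusted p = 1.05e-09). Ddit3 and Atf4 were higher in TAM, by 1.40 ± 0.10 and 0.91 ± 0.061 (edgeR, adjusted p = 1.10e-06 and 5.75e-07). Eif2ak3, which encodes PERK upstream of both, was lower in TAM, at 33.6 ± 1.4 CPM (n = 3) against 74.8 ± 4.9 (n = 2), a log2 difference of -1.16 ± 0.059 (edgeR, adjusted p = 7.62e-08), and Ern1 and Atf6 were lower as well, at -0.22 ± 0.081 and -0.21 ± 0.056 (edgeR, adjusted p = 0.0333 and 0.00685). Sdf2l1 and Herpud1 were lower in TAM, at -1.05 ± 0.051 and -0.48 ± 0.043 (edgeR, adjusted p = 5.08e-08 and 4.24e-06). Pdia4, Dnajb9 and Hspa5 were higher in TAM by 0.52 ± 0.043, 0.39 ± 0.069 and 0.32 ± 0.045 (edgeR, adjusted p = 2.54e-06, 0.000561 and 0.000111). Calr, at 1119.5 ± 34 and 1122 ± 21 CPM, and Hsp90b1, at 1027 ± 70 and 983 ± 21, did not pass the test. Of the 30 targets of ATF4 and CHOP, 23 were higher and 4 lower in TAM, with a median of 0.88.

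To compare levels between genes, CPM was divided by the length in kilobases of all annotated exons of a gene, merged over its transcripts (RPKM). The length of the transcripts expressed here was not measured, so the order of genes also depends on this choice. In Shp2f/f MDSC the order was Calr at 389 ± 12 RPKM, Hspa5 at 353 ± 15, Hsp90b1 at 255 ± 17, Xbp1 at 194 ± 1.9, Sdf2l1 at 138 ± 5.8, Atf4 at 89.9 ± 8.9, Pdia4 at 72.5, Herpud1 at 49.8 ± 0.35, Dnajb9 at 16.1 ± 1.3 and Ddit3 at 6.39. In Shp2f/f TAM it was Hspa5 at 441 ± 9.7 RPKM, Calr at 389.8 ± 7.3, Hsp90b1 at 244 ± 5.3, Atf4 at 169.6 ± 2.4, Pdia4 at 104 ± 1.0, Sdf2l1 at 66.8 ± 3.2, Xbp1 at 59.4 ± 2.2, Herpud1 at 35.7 ± 0.73, Dnajb9 at 21.2 ± 1.2 and Ddit3 at 16.97 ± 1.9. The same 3 chaperones led in all 4 groups, and Dnajb9 and Ddit3 came last in all. Xbp1 moved from rank 4 in MDSC to rank 7 in Shp2f/f TAM and 6 in Shp2f/fLysMcre TAM. Neighbors in this order overlapped only for Calr and Hspa5 and for Atf4 and Sdf2l1 in Shp2f/fLysMcre MDSC, and for Sdf2l1 and Herpud1 in Shp2f/fLysMcre TAM.

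**Figure D4:**
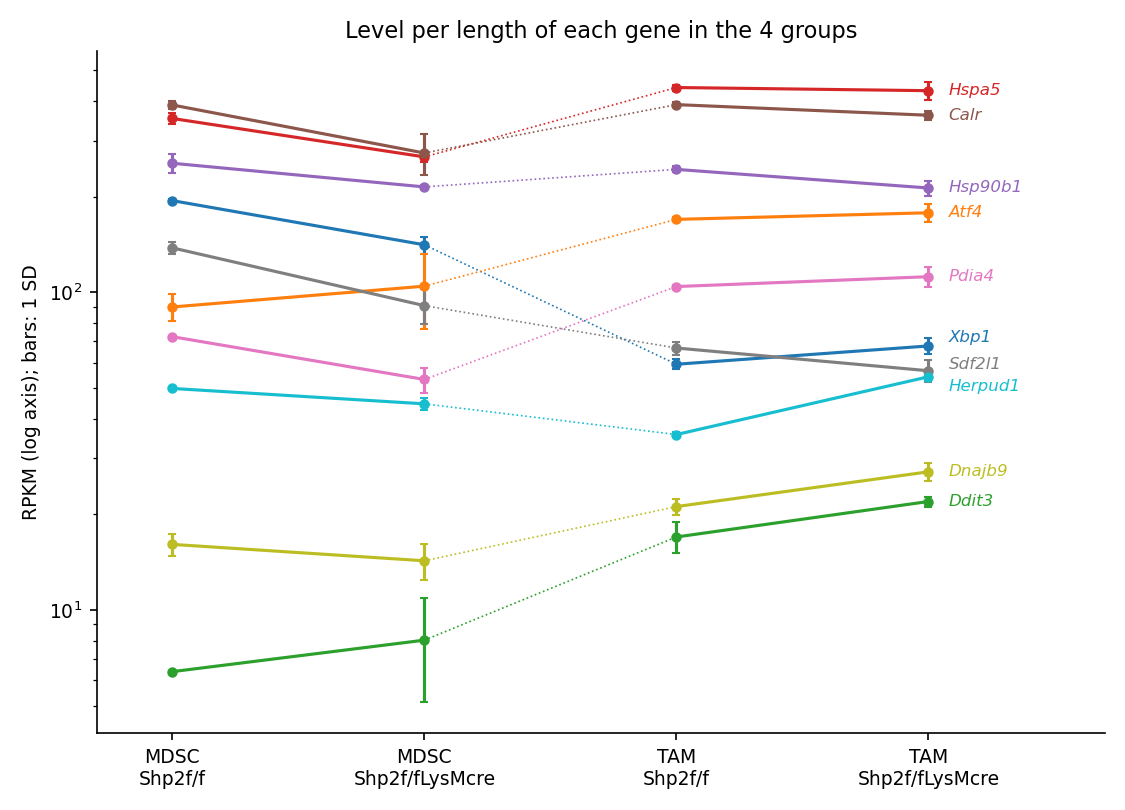
Mean level per length (RPKM, logarithmic vertical axis) of the 10 genes in the 4 groups (2, 2, 3 and 3 libraries), with bars of 1 SD; solid lines join the genotypes within a cell type and dotted lines only guide the eye between cell types. Hspa5, Calr and Hsp90b1 stay at the top, at 213 to 441 RPKM, while Xbp1 lies at 194 and 141 RPKM in MDSC and at 59.4 and 67.8 in TAM.

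Summed marker RNA of several cell types, and of dividing cells, differed between the genotypes, and its part in the results was not tested. Of all tested genes, 3.76% were called higher and 0.52% lower in Shp2f/fLysMcre MDSC, and 23.9% and 26.3% in Shp2f/fLysMcre TAM. In MDSC the summed level of 5 azurophil granule genes, markers of promyelocytes with a large ER, was 452 to 503 CPM of the total count in Shp2f/f and 1133 to 1296 in Shp2f/fLysMcre, with 5 of 5 called higher. The 18 proliferation genes were at 1195 to 1247 against 2369 to 2559 CPM, with 14 called higher, and the 8 genes of mature neutrophils at 8647 to 8801 against 20501 to 23051, with 3 called higher. Markers of macrophages were at 3089 to 3264 against 2660 to 2673 CPM, with none of 10 called. The 12 plasma cell markers summed to 3001 to 3900 CPM in Shp2f/f MDSC and 4125 to 4908 in Shp2f/fLysMcre MDSC, with 1 called higher, and the 10 genes together took 5010 to 5276 against 4086 to 4119 CPM. Jchain was at 219 and 157 against 324 and 251 CPM, and Mzb1 at 2.13 to 5.99 CPM in all. In TAM the plasma cell markers summed to 523 to 538 CPM in Shp2f/f and 317 to 326 in Shp2f/fLysMcre, and of the 6 tested 3 were called higher and 2 lower. Sdc1, which is not particular to plasma cells, made up much of that sum, at 287 ± 14 against 169 ± 9.2 CPM, while Jchain was at no more than 1.32 CPM and Mzb1 at no more than 0.0782. Of the 10 genes of T and NK cells 9 were called lower in TAM and Cd4 higher, with summed levels of 30.3 to 31.3 against 54.5 to 55.9 CPM. Of the 7 tested genes of mature neutrophils 5 were called higher and Mmp9 lower, with sums of 4354 to 4579 against 2286 to 2341 CPM. The macrophage markers rose in TAM, 10 of 10, from 12957 to 13398 up to 19025 to 20534 CPM, and proliferation genes fell, 18 of 18, from 1740 to 1759 down to 961 to 1020. Erythroid genes in MDSC were at 375 to 384 against 805 to 938 CPM, with 8 of 10 called higher, and acinar genes of the pancreas at 61.4 to 91.8 against 16.6 to 31.2, with 5 of 11 called lower. Islet genes of the pancreas were at 894 to 6968 CPM in Shp2f/f TAM and 6.10 to 79.0 in Shp2f/fLysMcre TAM, with Ins2 at 4258 CPM in Shp2f/f replicate 3 and 775 and 488 in the others. Without that library 7 of the 10 genes were again called in TAM, 4 higher and 3 lower, where 43.7% of all genes were called. Shp2f/f replicates 1 and 2 still held 1350 and 894 CPM of islet genes, so that fit does not take the islet RNA out.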

How the data were processed

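MDSC and TAM libraries were grouped by sample title. The authors made stranded poly(A) libraries, trimmed reads with cutadapt 2.5, aligned them with STAR 2.7.3a to GRCm38, assigned them with featureCounts (Subread 1.6.2) and deposited raw counts, whole numbers of reads per gene; strand and multi-mapping settings were not stated. The authors' table of normalized values was not used. Counts were tested with edgeR 4.0.16 (R 4.3.3; filterByExpr with a minimum count of 10, TMM, quasi-likelihood F test, Benjamini-Hochberg threshold 0.05), fitted on the whole table separately for MDSC, TAM, the interaction over all 10 libraries and the cell types in Shp2f/f, after the fit was tested on simulated data. SE is the log2 fold change over the square root of F. Symbols and exon lengths came from an annotation of GRCm38, which matched 99.67% of identifiers. Ddit3 has 2 identifiers; the second, of 105 exon bases, had 0 counts and was left out. Alternatives were DESeq2 1.42.0, other scalings and filters, limma 3.58.1 voom, a replicate block, a threshold of 0.01 and leaving out each library.

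The members and lists were chosen with earlier results of these data known. All 10 members are named, the sensors Ern1, Eif2ak3 and Atf6, and in each genotype comparison the 3 called genes with the largest rise and the 3 with the largest fall in the pathway lists, with a mean of at least 10 CPM; other names were chosen after their values were seen.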

Additional observations from a re-analysis of the deposited data

Results flagged for a closer look

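Of the 10 genes, 6 were marked because the genotype difference itself differed between the cell types in the edgeR interaction test. The difference in TAM minus that in MDSC, on the log2 scale, was 0.65 for Xbp1, 0.37 for Hspa5, 0.54 for Dnajb9, 0.77 for Herpud1, 0.55 for Pdia4 and 0.39 for Calr. Xbp1, Dnajb9, Herpud1 and Pdia4 had fitted values of opposite sign in the 2 cell types, and Hspa5 and Calr were lower in both, more so in MDSC. None of the 6 passed the edgeR test in MDSC, and Pdia4 and Hspa5 did not pass it in TAM either. With total-count scaling Pdia4 was at -0.03 in TAM. The spread between libraries was larger in MDSC, with a biological coefficient of variation of 0.189 against 0.0595 in TAM, while the interaction fit used 1 dispersion per gene. With limma voom and a weight per cell type 5 of the 6 kept their call, and Hspa5 did not, at 0.37.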

How the results depend on the processing

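In MDSC the count of called members was 5 with DESeq2 and 4 with a replicate block, against 0, and 0 to 7 when 1 library was left out. The other pathway genes called in MDSC, 1, were 9 with DESeq2, 2 with total-count scaling, 2 without the 20 most abundant genes, 2 with a filter of 1 CPM in 2 samples, 19 with the replicate block, 0 at a threshold of 0.01 and 0 to 35 when 1 library was left out. The interaction count of 6 was 3 with total-count scaling, 3 at 0.01 and 3 to 8 without 1 library. Counts in TAM (6 to 8 members, 46 to 68 pathway genes) and between cell types (8 or 9) stayed within 1.5 times. Over all genes in MDSC, edgeR called 633, DESeq2 1193, the replicate block 2674 and no low-count filter 130. In the interaction 12.2% of all genes were called more positive in TAM in the main fit and 7.45% with total-count scaling. Leaving aside the threshold of 0.01, 26.8% to 57.5% of all genes were called in TAM and 45.6% to 83.3% between cell types.

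Fitted values changed sign for Ern1 in MDSC with the replicate block (-0.0092), and for Eif2ak3 with the block (-0.00028) and with no low-count filter (-0.0017). With total-count scaling they did in TAM for Atf4 (-0.065), Pdia4 (-0.031), Eif2ak3 (-0.018) and Atf6 (-0.025), in the interaction for Ddit3 (-0.14) and Hsp90b1 (-0.12), and between cell types for Calr (-0.021), which also turned without the 20 most abundant genes (-0.0014), with the CPM filter (-0.0046) and with the block (-0.00093). The cause was not tested.

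Leaving out 1 library turned the sign in MDSC for Atf4 (-0.080 to 0.42), Ddit3 (-0.093 to 0.61), Ern1 (-0.37 to 0.31) and Eif2ak3 (-0.25 to 0.21), and in TAM for Atf4 (-0.021 to 0.071). It did so in the interaction for Atf4 (-0.39 to 0.15) and Ddit3 (-0.28 to 0.47), and between cell types for Hsp90b1 (-0.13 to 0.0012) and Calr (-0.029 to 0.029). Where this left an MDSC group with 1 library, that library was assumed to vary like the others. Same-numbered MDSC libraries had correlated deviations (r = 0.413), but with 2 pairs the numbers are not shown to pair mice, and in TAM r was -0.179, 0.059 and 0.020; the block changed no member's call in TAM. The least counted member, Ddit3, had 8440 counts over all libraries.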
